A study of Mus musculus with 200 samples.

Results

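The 9 genes Arc, Npas4, Bdnf, Homer1, Nptx2, Vgf, Inhba, Scg2 and Pcsk1 are transcribed in neurons in response to activity and encode synaptic or secreted proteins, with Npas4 as the transcription factor among them. They were taken by gene name as 9 of the 56941 genes listed for 200 mice. All 9 passed the filter on low counts in every comparison. Bulk RNA sequencing was done on brain tissue from the C57BL/6J strain and from 3 strains with the labels IL-1R1 gKO, IL-1R1 eRestore and, last, IL-1R1 nRestore (98 male and 102 female mice, 3.3 to 7.67 months old). In each strain, mice received closed-head injury (CHI), a single midline impact on the intact skull under isoflurane, or sham surgery with anaesthesia and scalp incision but no impact, as the study's methods describe for C57BL/6J mice. At 9 h the groups held 15 CHI and 6 sham C57BL/6J mice, 13 and 6 IL-1R1 gKO mice, 12 and 6 IL-1R1 eRestore mice, and 6 and 4 IL-1R1 nRestore mice. At 24 h these numbers were 14 and 6, 12 and 6, 9 and 5, and 8 and 5. At 72 h they were 14 and 6, 12 and 6, 12 and 6, and 6 and 5, and the 11 IL-1R1 nRestore mice of that time point were all labelled male.

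The sources used here do not say which cells carry the receptor in the eRestore and nRestore mice. Il1r1, the gene for the interleukin-1 receptor type 1, was not lower in the mice labelled gKO: its median in 9 h sham mice was 7.57 CPM in IL-1R1 gKO and 3.68 CPM in C57BL/6J mice, where CPM is the count normalized by TMM factors and library size. Gene-level counts therefore did not check the strain labels. Libraries held 14857985 to 57355676 estimated counts (median 20258936), sex-linked genes matched the labelled sex in all but 2 of 200 mice, and the closest pair of libraries in each of the 24 groups differed by more than sampling noise. The 9 h mice came from 3 experiments that held no later mice, and surgery was done in the morning by the methods for C57BL/6J mice, so that time after surgery, experiment and time of day at collection cannot be told apart. Every experiment held CHI and sham mice at each of its time points, but not in every strain: at 24 h, 13 CHI mice of the gKO, eRestore and nRestore strains (5.7 to 7.4 months old) came from the experiment labelled NiL-1-21, which held no sham mouse of those strains.

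Synaptic activity raises calcium in neurons, and calcium-dependent kinases activate transcription factors such as CREB, SRF and MEF2 that switch on an early set of genes. Some of these genes encode further transcription factors, and others encode effectors that change synapses directly or are secreted. The effectors include proteins that adjust AMPA and metabotropic glutamate receptors, growth factors, and neuropeptide precursors with the enzyme that cuts them.

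The 250 bases before the start of the canonical transcript of 3 of the genes are shown as examples with and without the element described next: Arc and Pcsk1 fell at 9 h, and Vgf did not pass the test. Sequences are from GRCm39, read on the strand of the gene, and capitals mark the cyclic AMP response element TGACGTCA or the TGACG that forms part of it.
Arc, chr15:74544420-74544669, minus strand: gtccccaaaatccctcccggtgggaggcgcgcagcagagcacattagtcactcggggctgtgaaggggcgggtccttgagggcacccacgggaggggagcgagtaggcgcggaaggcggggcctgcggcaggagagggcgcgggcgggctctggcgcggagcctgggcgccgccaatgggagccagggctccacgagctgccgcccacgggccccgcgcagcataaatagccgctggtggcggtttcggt
Pcsk1, chr13:75237695-75237944, plus strand: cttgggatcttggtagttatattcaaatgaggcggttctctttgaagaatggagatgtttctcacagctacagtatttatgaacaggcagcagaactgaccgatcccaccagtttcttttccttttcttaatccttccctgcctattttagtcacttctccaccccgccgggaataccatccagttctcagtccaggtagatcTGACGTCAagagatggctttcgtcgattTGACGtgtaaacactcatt
Vgf, chr5:137058880-137059129, plus strand: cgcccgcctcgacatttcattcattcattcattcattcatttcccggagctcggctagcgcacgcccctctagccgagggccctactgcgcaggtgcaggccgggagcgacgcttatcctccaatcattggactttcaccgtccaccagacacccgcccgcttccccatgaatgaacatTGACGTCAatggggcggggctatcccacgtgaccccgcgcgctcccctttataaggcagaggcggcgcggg
The full element TGACGTCA, searched on both strands, was present in 2 of the 8 windows reported (Pcsk1 and Vgf) and in 1.69% of 21770 windows of the same length. Its shorter form CGTCA, which every full element also holds, was present in the same 2 of the 8 windows and in 18% of all windows. All other motifs were searched on both strands too. The AP-1 site TGANTCA was found in the Homer1 window (6.17% of all) and the E-box CACGTG (6.26% of all) and TATAAA (11.9% of all) in the Vgf window, none of them overlapping a full element. The TATAAA of the Vgf window lies on the strand opposite to the one shown, which reads TTTATA there. Of the 2 genes with a full element in this window, one fell at 9 h and the other did not pass the test.

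Levels differed widely between the 9 genes. Per transcript length, the median over the 200 mice was highest for Scg2 (244 TPM, range 157.6 to 370), a granin of dense-core vesicles, followed by Vgf (215 TPM, 90.7 to 357), a neuropeptide precursor, Homer1 (145.96 TPM, 62.5 to 234), a postsynaptic scaffold protein, and Arc (88.2 TPM, 16.9 to 310), which drives the internalisation of AMPA receptors. Nptx2, a secreted pentraxin that clusters AMPA receptors, had a median of 39.8 TPM, and Pcsk1, the prohormone convertase that cuts neuropeptide precursors, one of 26.6 TPM. Bdnf, the neurotrophin ligand of TrkB, stood at 13.8 TPM, Inhba, the activin A subunit, at 6.15 TPM, and Npas4 at 5.69 TPM. The ranges of neighbours in this order overlapped. Arc and Npas4 also varied most between mice of one group, with within-group SDs of 0.68 and 0.61 on the log2 scale, against 0.15 for Scg2 and 0.23 to 0.27 for the other 6 genes.

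**Figure D1:**
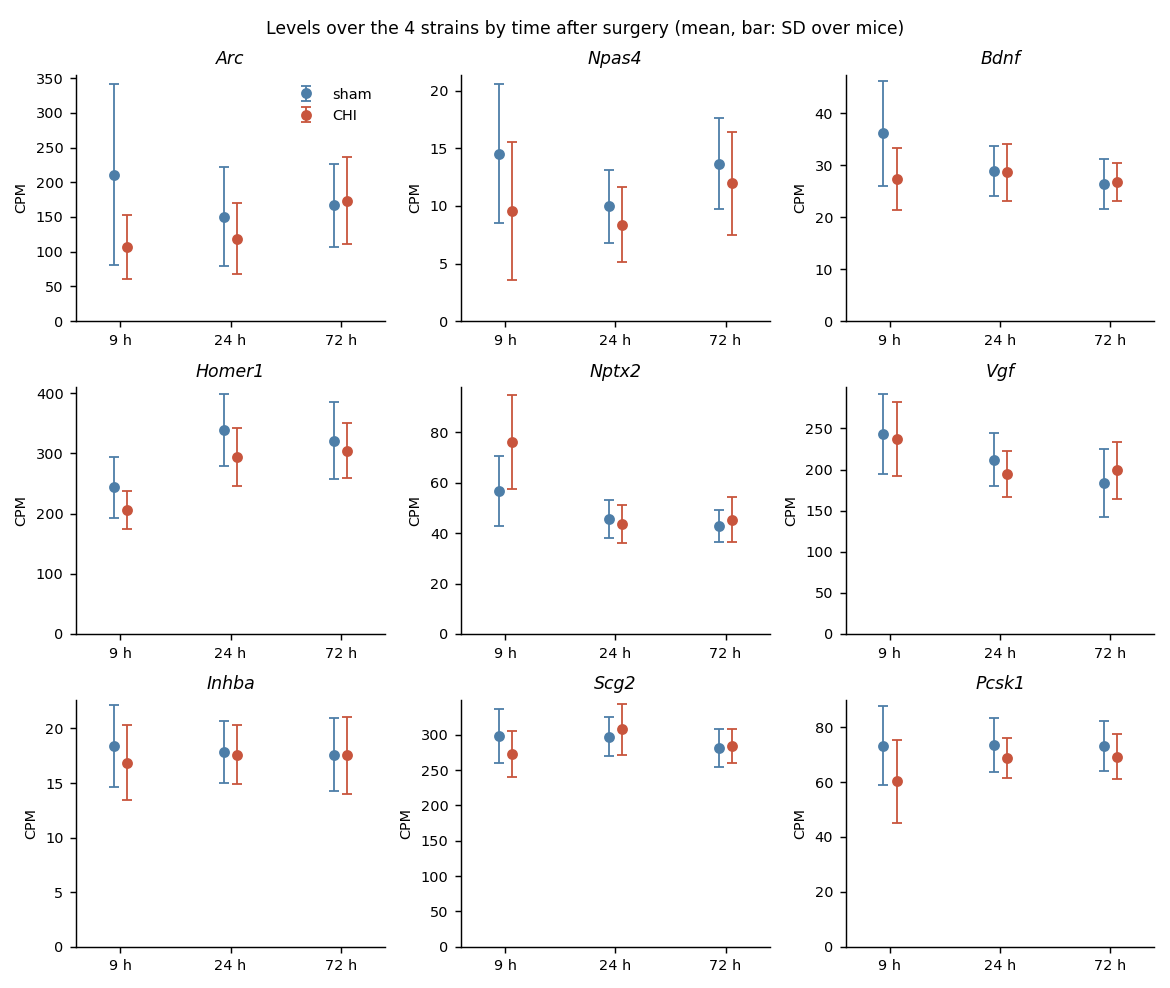
Mean CPM of each gene over the 4 strains at 9, 24 and 72 h in CHI and sham mice, with bars for the SD over mice. Nptx2 was highest in CHI mice at 9 h (76.3, against 56.8 in sham mice), and Arc was highest in sham mice at 9 h (211, against 106.7 in CHI mice).

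The first comparison asked how CHI changed each gene within a strain at 9 h. In C57BL/6J mice, edgeR called Arc, Npas4, Bdnf, Homer1 and Pcsk1 lower and none of the 9 higher. Sex and age were covariates in edgeR's quasi-likelihood test, a gene was called at a Benjamini-Hochberg adjusted p under 0.05, and 14.1% of all 16967 genes tested were called (7% lower). At an unadjusted p under 0.05 there were 7 of the 9, and 4709 of the 16967 genes. DESeq2 called 7 of the 9, and its share of all genes is not given here. In these bulk samples, fewer cells of a type and less RNA per cell cannot be told apart.

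Arc changed most. The 6 C57BL/6J sham mice had 141.5, 360 and 487 CPM as lowest, median and highest values, and the 15 CHI mice had 60.9, 99.9 and 155.2. In 14 of 15 CHI mice Arc was below every sham mouse. The difference was −1.64 on the log2 scale (SE 0.20, adjusted p = 2e-05), a fall to 0.320 of the sham mean.

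Npas4, a transcription factor that adjusts inhibitory and excitatory synapses, had 10.9, 15.0 and 27.7 CPM in sham mice and 2.44, 6.15 and 15.0 in CHI mice, again with 14 of 15 CHI mice below all sham mice. It fell by 1.29 on the log2 scale (SE 0.29, adjusted p = 0.00543).

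Among the secreted factors, Bdnf ranged from 34.4 to 49.9 CPM in sham mice (median 44.5) and from 20.1 to 35.0 in CHI mice (median 25.8). Its groups were nearly apart, with 14 of 15 CHI mice below all sham mice. Bdnf fell by 0.76 on the log2 scale (SE 0.08, adjusted p = 1.12e-06), the smallest adjusted p of the 9 genes. Inhba had medians of 18.3 in sham and 13.9 in CHI mice, with all 15 CHI mice within the sham range, and did not pass the test (log2 difference −0.36, SE 0.13, adjusted p = 0.0656).

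Of the synaptic proteins that act on receptors, Homer1 had 182.8, 288 and 336 CPM in sham and 191.002, 215 and 272 in CHI mice. None of the 15 CHI mice was below the lowest sham mouse, although the CHI median was lower. The fall of 0.32 on the log2 scale (SE 0.08, adjusted p = 0.0114) lost its call without sham replicate 1 (adjusted p = 0.0632) or 6 (adjusted p = 0.0518). Nptx2 was the one gene with a higher median after CHI, 66.9 against 52.0, and 9 of 15 CHI mice were above all sham mice. Its log2 difference of 0.35 (SE 0.13) did not pass edgeR's test (adjusted p = 0.0699).

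Of the genes of the regulated secretory pathway, Pcsk1 ranged from 58.9 to 96.8 CPM in sham (median 74.1) and from 40.2 to 78.1 in CHI mice (median 60.5), and 7 of 15 CHI mice were below all sham mice. It fell by 0.41 on the log2 scale (SE 0.07, adjusted p = 0.000253). The precursor genes Vgf (log2 difference −0.16, SE 0.10, adjusted p = 0.307) and Scg2 (−0.16, SE 0.08, adjusted p = 0.2) did not pass the test.

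The C57BL/6J mice of 9 h came from experiments labelled eIL-1-76 (10 CHI and 4 sham mice) and eIL-1-80 (5 and 2). Fitted alone, the log2 difference of Arc was −1.83 in the former and −1.21 in the latter, where it was not called (adjusted p = 0.245). Bdnf differed by −0.82 and −0.60 and Pcsk1 by −0.37 and −0.49, called in both. Npas4 differed by −1.35 and −1.22, without a call in the latter (adjusted p = 0.514), and Homer1 by −0.37 and −0.16, likewise (adjusted p = 0.622). Inhba differed by −0.54 and 0.13, called in eIL-1-76 (adjusted p = 0.00905). Nptx2 differed by 0.27 and 0.53, called in eIL-1-80 (adjusted p = 0.0365). Vgf and Scg2 were called in neither. Of all genes, 1226 of 17220 were called in eIL-1-76 and 279 of 16644 in eIL-1-80.

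**Figure D2:**
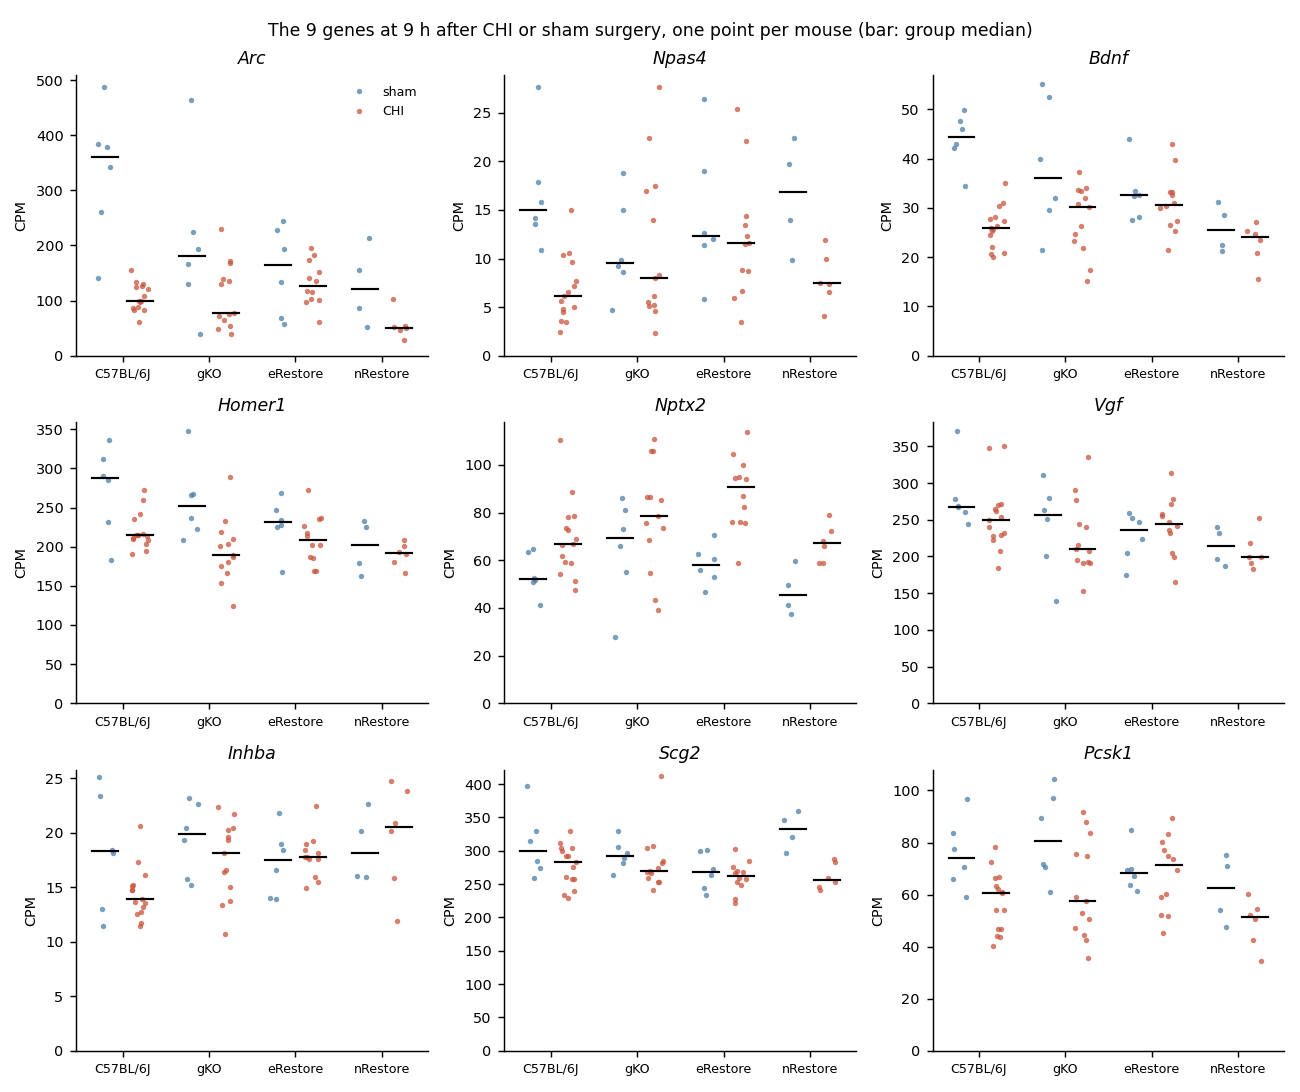
CPM of each gene at 9 h, by strain and surgery, with a point for every mouse and a bar at the group median. In C57BL/6J mice 14 of 15 CHI mice lie below all sham mice for Arc, Npas4 and Bdnf, and in IL-1R1 eRestore mice 11 of 12 CHI mice lie above all sham mice for Nptx2.

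In IL-1R1 gKO mice at 9 h, edgeR called none of the 9 genes and 0.199% of 16604 genes. At an unadjusted p under 0.05 there were 5 of the 9 and 1784 of the 16604 genes, and DESeq2 called 1 of the 9, Homer1. Arc had a median of 180 CPM in sham (39.5 to 463) and 77.4 in CHI mice (39.2 to 230), and 12 of 13 CHI mice were within the sham range. Its log2 difference was −0.92 (approximate 95% interval −1.63 to −0.21, adjusted p = 0.361). For Homer1, 9 of 13 CHI mice were below all sham mice (log2 difference −0.36, adjusted p = 0.124), and for Pcsk1 8 of 13 (−0.36, adjusted p = 0.221). Bdnf differed by −0.38 (adjusted p = 0.226), Nptx2 by 0.37 (adjusted p = 0.391) and Npas4 by −0.17 (adjusted p = 0.927). Fitted alone, eIL-1-76, eIL-1-80 and the experiment labelled TM-2-33 gave 0.60, 0.39 and −0.89 for Npas4, called in none. Bdnf differed by −0.06, −0.75 and −0.24, Homer1 by −0.09, −0.58 and −0.35, and Pcsk1 by −0.01, −0.58 and −0.52. Bdnf, Homer1 and Pcsk1 were called in eIL-1-80 alone, with 3 CHI and 2 sham mice. More of all genes were called there than in eIL-1-76 (2 of 16613) or TM-2-33 (0 of 17555). The missing calls in eIL-1-76 and TM-2-33 are therefore not particular to these 3 genes. Differences between these experiments were not tested.

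In IL-1R1 eRestore mice at 9 h, Nptx2 was the only one of the 9 called, among 7.34% of 16652 genes (4.1% higher). Nptx2 had 46.6, 58.04 and 70.7 CPM in the 6 sham mice and 58.8, 90.6 and 114 in the 12 CHI mice. In 11 of 12 CHI mice it was above every sham mouse, and it rose by 0.58 on the log2 scale (SE 0.12, adjusted p = 0.00797). Within experiments the log2 difference of Nptx2 was 0.71 (eIL-1-76, adjusted p = 0.0319) and 0.64 (eIL-1-80, adjusted p = 0.0966). Arc had medians of 163.9 in sham and 126.1 in CHI mice, with all 12 CHI mice within the sham range (log2 difference −0.20, approximate 95% interval −0.77 to 0.36). Bdnf differed by −0.11 (interval −0.35 to 0.14) and Pcsk1 by −0.02 (interval −0.21 to 0.17), with 5 of 12 CHI mice below all sham mice for Pcsk1. Fitted alone, eIL-1-76 and eIL-1-80 gave values of opposite sign for some genes. Arc differed by 0.01 and −0.64, Homer1 by 0.17 and −0.38, Pcsk1 by 0.06 and −0.33, and Bdnf by 0.16 and −0.19. Npas4 went the other way (−0.64 and 0.37). None of these was called in either experiment (Homer1 in eIL-1-80, adjusted p = 0.0557). A smaller share of all genes was called in each of these fits than in the fit of all eRestore mice (7.34%). Differences between the experiments were not tested.

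In IL-1R1 nRestore mice at 9 h, all from the experiment labelled TM-2-33, Scg2 was the only one of the 9 called, among 0.608% of 16788 genes (0.262% lower). The 4 sham mice had 296, 320, 345 and 359 CPM of Scg2, and the 6 CHI mice 241 to 288 (median 256). The groups did not overlap, but how many of all genes did the same with groups of this size was not counted. Scg2 fell by 0.40 on the log2 scale (SE 0.08, adjusted p = 0.041), but the call was lost without any one of 3 of the 4 sham mice or of 4 of the 6 CHI mice. Arc had 51.9, 87.3, 155.9 and 214 CPM in the sham mice and a median of 50.7 in CHI mice, 4 of 6 of which were below all sham mice (log2 difference −0.69, adjusted p = 0.543). Pcsk1 (−0.57, adjusted p = 0.0636) and Nptx2 (0.31, adjusted p = 0.142) missed the threshold. At an unadjusted p under 0.05 there were 6 of the 9 genes, and 2207 of all 16788.

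Whether the CHI effect differed between strains was tested as an interaction. At 9 h edgeR called none of the 9 genes for a difference of the effect in IL-1R1 gKO, eRestore or nRestore mice from that in C57BL/6J mice. With Benjamini-Hochberg adjustment, 0%, 0.0107% and 0.00534% of 18741 genes were called. DESeq2 called none of the 9 either. At an unadjusted p under 0.05 there were 2, 4 and 1 of the 9, and 1199, 1608 and 1042 of the 18741 genes. The difference nearest to a call was that of Bdnf between eRestore and C57BL/6J mice, 0.66 on the log2 scale (approximate 95% interval 0.32 to 1.01, adjusted p = 0.139). For Arc the same difference was 1.45 (interval 0.59 to 2.32, adjusted p = 0.203), between gKO and C57BL/6J mice it was 0.77 (interval −0.09 to 1.63), and between nRestore and C57BL/6J mice 0.33 (interval −0.68 to 1.34). For Nptx2 the differences were 0.24 (interval −0.16 to 0.63), 0.02 (−0.38 to 0.41) and 0.09 (−0.38 to 0.55) in that order of strains. At 24 h and 72 h the interaction called none of the 9 genes in any strain by either tool (0.00541%, 0.0108% and 0% of genes at 24 h and 0%, 0% and 0.00543% at 72 h in gKO, eRestore and nRestore mice), with 2, 0 and 0, and 1, 1 and 0 of the 9 at an unadjusted p under 0.05. Of all genes, 1574, 691 and 754 of 18495 had such a p at 24 h, and 529, 793 and 900 of 18408 at 72 h. The C57BL/6J sham mice also stood higher in Arc than the other sham mice of 9 h (medians 360 against 180, 163.9 and 122 CPM in gKO, eRestore and nRestore mice), and the nRestore and C57BL/6J mice shared no experiment, so that strain and experiment cannot be told apart between them.

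With the strains pooled and strain added to the covariates, 46 CHI mice were compared with 22 sham mice at 9 h. Here 6 of the 9 genes fell and 1 rose, against 26.5% of 16657 genes called (13.8% lower and 12.7% higher). Arc fell by 1.06 on the log2 scale (SE 0.17, adjusted p = 2.56e-06), Npas4 by 0.73 (SE 0.19, adjusted p = 0.00325) and Bdnf by 0.41 (SE 0.07, adjusted p = 5.77e-06). Homer1 fell by 0.26 (SE 0.05, adjusted p = 0.000198), Pcsk1 by 0.31 (SE 0.07, adjusted p = 0.00117) and Scg2 by 0.13 (SE 0.04, adjusted p = 0.0124). Nptx2 rose by 0.41 (SE 0.08, adjusted p = 1.88e-05), in the direction opposite to the other 6. Vgf (−0.06, adjusted p = 0.485) and Inhba (−0.13, adjusted p = 0.185) did not pass the test. Without the C57BL/6J mice, the log2 difference was −0.77 for Arc, −0.26 for Bdnf and 0.45 for Nptx2, still called, whereas the calls of Npas4 (−0.45, adjusted p = 0.214) and Scg2 (−0.12, adjusted p = 0.0937) were lost. That of Scg2 was also lost without the nRestore mice (−0.10, adjusted p = 0.141).

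Within each of the 3 experiments at 9 h, strains together, the log2 difference of Arc was −0.99 (eIL-1-76), −0.93 (eIL-1-80) and −1.05 (TM-2-33), that of Bdnf −0.38, −0.48 and −0.20, and that of Nptx2 0.42, 0.48 and 0.55. All 9 of these values had the direction of the pooled fit. Arc, Bdnf and Nptx2 were called in the first and the second experiment, where 9.7% and 11.2% of genes were called. In the third, with 2.76% of genes called, edgeR called Npas4 alone (−1.003, adjusted p = 0.04), and DESeq2 called Arc, Nptx2 and Pcsk1 as well. Homer1 was called in eIL-1-80 alone among the 3 (−0.37, against −0.16 and −0.18), and so was Pcsk1 (−0.46, against −0.17 and −0.42), differences that were not tested.

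**Figure D3:**
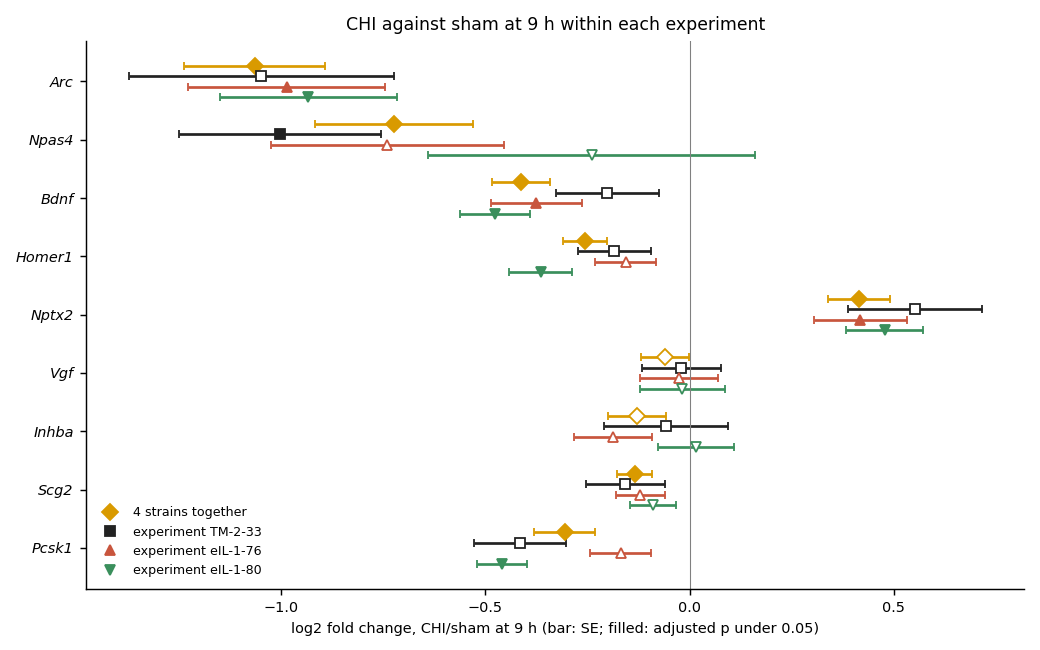
Log2 fold change of CHI over sham mice at 9 h within each experiment and over the 4 strains together, with bars for the SE and filled symbols at an adjusted p under 0.05. Arc lies at −0.99, −0.93 and −1.05 and Nptx2 at 0.42, 0.48 and 0.55 in the 3 experiments.

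Markers of other cells and regions also moved between the 46 CHI and 22 sham mice of 9 h, where 26.5% of all genes were called. Of 5 choroid plexus markers all fell (median log2 difference −2.001), with summed levels of 4.79 to 2505 TPM in CHI and 9.41 to 6232 in sham mice. Of 5 striatal markers Drd1 and Drd2 fell (median −0.57), and the summed level was 121.7 to 726 TPM in CHI and 94.2 to 683 TPM in sham mice. Of 5 microglial markers 4 fell (median −0.25, summed 77.5 to 253 in CHI and 130 to 279 in sham mice). Of 5 endothelial markers 3 rose and 1 fell (median 0.24). Of 5 red blood cell markers edgeR called none (median 1.15, 4 at an unadjusted p under 0.05), DESeq2 called 3, and they had median summed levels of 167.7 TPM in CHI and 24.6 TPM in sham mice. Of 5 astrocyte markers Aldh1l1 rose and Gja1 fell (median −0.07), of 6 pan-neuronal markers Rbfox3 rose and Tubb3 fell (median 0.06), and of the 3 cerebellar markers tested Cbln1 rose and Car8 fell (median −0.23). No oligodendrocyte or dentate gyrus marker was called by edgeR or DESeq2, and 0 had an unadjusted p under 0.05. Of 6 excitatory neuron markers 1 rose (Camk2a, the median of the 6 being −0.01, summed 2997 to 5366 in CHI and 3558 to 5106 in sham mice), and of 6 inhibitory neuron markers neither edgeR nor DESeq2 called any (median −0.01, 0 at an unadjusted p under 0.05). In C57BL/6J mice alone, where 14.1% of genes were called, 3 of 5 microglial markers fell (median −0.40). Neurod6 was the only one of 6 excitatory neuron markers called, lower (median of the 6 −0.05). Tubb3 was the only one of 6 pan-neuronal markers called, also lower (median of the 6 0.04). Among 5 endothelial markers Pecam1 and Ly6c1 rose and Flt1 fell (median 0.14), and among 5 astrocyte markers Aldh1l1 rose (median −0.05). There edgeR called no choroid plexus (median −2.03) or striatal marker (median −0.77), with 2 and 1 at an unadjusted p under 0.05 and 2 and 1 called by DESeq2. The part of these cells in the differences of the 9 genes was not tested. Of all genes, 6105 of 16657 had an unadjusted p under 0.05 over the 4 strains, and 4709 of 16967 in C57BL/6J mice.

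**Figure D4:**
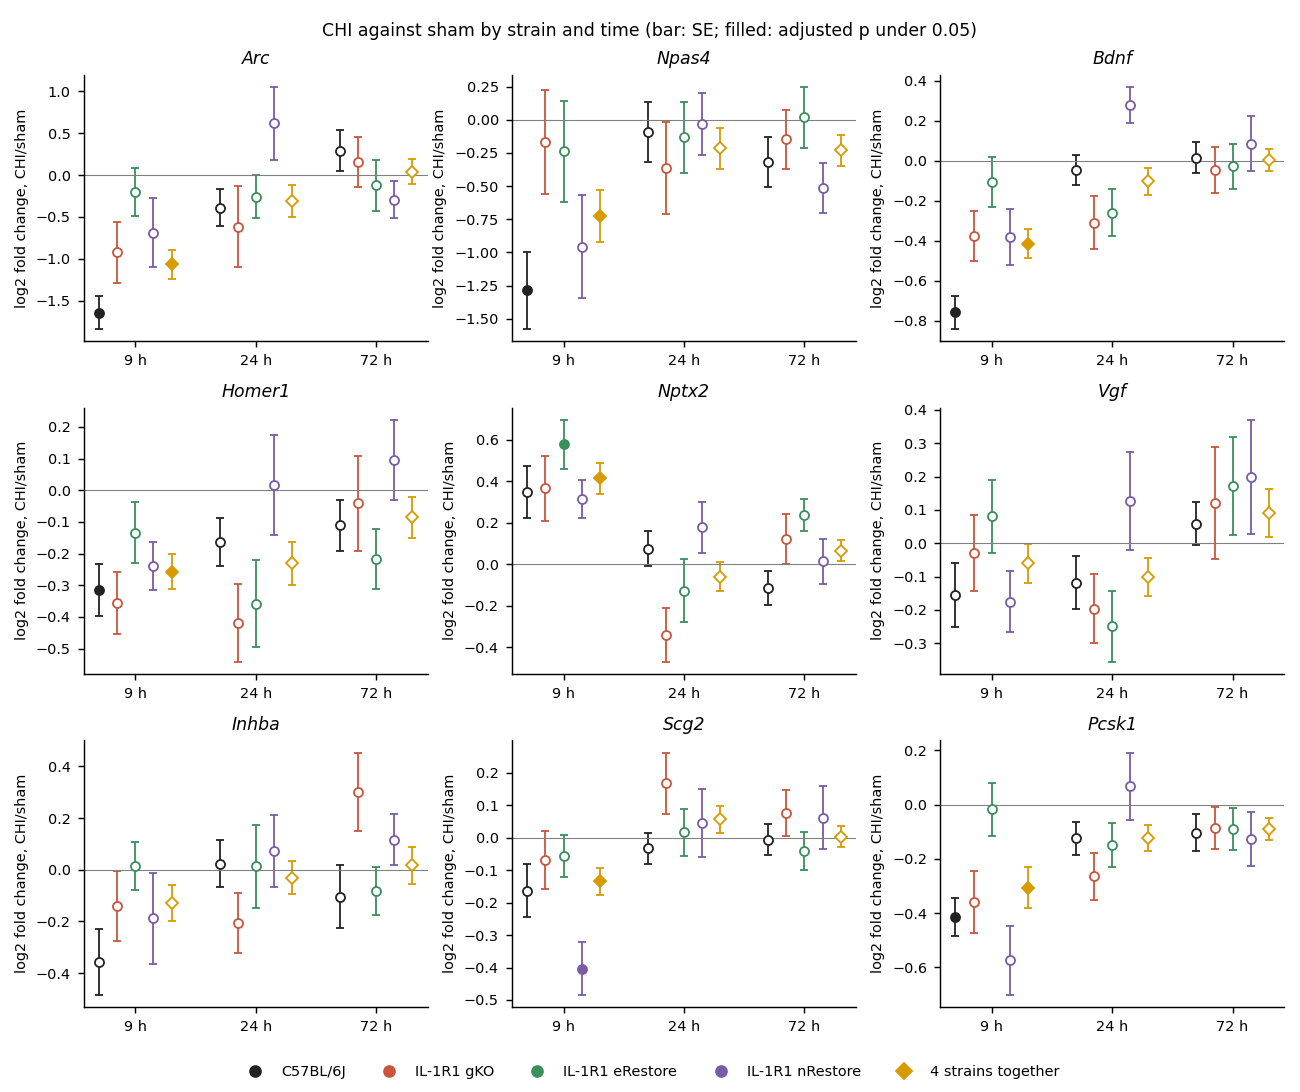
Log2 fold change of CHI over sham mice for each gene by time point, in each strain and over the 4 strains together, with bars for the SE and filled symbols at an adjusted p under 0.05. Filled symbols occur at 9 h alone, in C57BL/6J (5 genes), IL-1R1 eRestore (Nptx2) and IL-1R1 nRestore mice (Scg2) and over the 4 strains together (7 genes).

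At 24 h and 72 h, edgeR called none of the 9 genes in any strain, and DESeq2 called none either. The background was 0.404% of genes at 24 h in C57BL/6J mice, 0.0059% in gKO mice and 0% in eRestore and nRestore mice, and 0%, 0%, 0.00605% and 0.0121% at 72 h in the same order. At an unadjusted p under 0.05 there were 2, 4, 3 and 1 of the 9 genes at 24 h and 0, 0, 2 and 1 at 72 h. Of all genes, 1504 of 16577, 1502 of 16953, 1494 of 16505 and 740 of 17059 had such a p at 24 h. At 72 h these were 869 of 16875, 376 of 16709, 943 of 16536 and 930 of 16508. Over the 4 strains together, none was called at 24 h (1.96% of genes) or at 72 h (0.717%), with 2 of the 9 at an unadjusted p under 0.05 at each time. Such a p was found for 2494 of 16704 genes at 24 h and 1273 of 16596 at 72 h. Homer1 was nearest at 24 h, with a mean of 339 ± 59.4 CPM (SD, n = 22) after sham surgery and 294 ± 48.0 CPM (SD, n = 43) after CHI. Its log2 difference was −0.23 (SE 0.07, adjusted p = 0.0542), and DESeq2 called it. When experiment replaced age among the covariates, which bears on the uneven experiments of 24 h, none of the 9 was called (1.28% of genes), and Homer1 differed by −0.23 (adjusted p = 0.0612). Arc differed by −0.32 at 24 h (SE 0.19) and by 0.04 at 72 h (SE 0.14), and Nptx2 by −0.06 (SE 0.07) and 0.07 (SE 0.05).

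A further contrast asked whether CHI acted differently at 9 h than later, over the 4 strains. Against 24 h, the effect at 9 h on Nptx2 was 0.54 higher on the log2 scale (SE 0.10, adjusted p = 2.92e-05) and that on Scg2 was lower (log2 difference −0.20, SE 0.06, adjusted p = 0.0081), among 9.63% of 20111 genes called. Against 72 h, the effect at 9 h was lower for Arc (log2 difference −0.9999, SE 0.24, adjusted p = 0.00165) and Bdnf (−0.38, SE 0.09, adjusted p = 0.00222), and 0.37 higher for Nptx2 (SE 0.10, adjusted p = 0.00513), among 11.8% called. The change of −0.16 for Scg2 (adjusted p = 0.036) lost its call without the 2 mice whose sex-linked genes went against their label (adjusted p = 0.0543). Against 24 h, the changes of Arc (−0.70, adjusted p = 0.0567) and Bdnf (−0.26, adjusted p = 0.0695) missed the threshold. In single strains the change of Arc against 72 h was −2.04 in C57BL/6J (called), −0.90 in gKO, −0.11 in eRestore and −0.95 in nRestore mice.

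These changes of effect rest on levels that moved in both surgery groups, and the comparisons share mice. In sham mice, Homer1 was lower at 9 h than at 24 h (log2 difference −0.51, SE 0.07, adjusted p = 2.2e-09), and Npas4 (0.57), Bdnf (0.26), Nptx2 (0.29) and Vgf (0.19) were higher, among 45.1% of genes called. Against 72 h, sham mice of 9 h were lower in Homer1 (−0.42) and higher in Bdnf (0.40), Nptx2 (0.38) and Vgf (0.41), among 44.8% called. The call of Vgf against 24 h was lost without the 2 mice that went against their labelled sex (0.17, adjusted p = 0.0674). Between 24 h and 72 h none of the 9 genes was called in sham mice by edgeR or DESeq2 (0.0199% of genes). At an unadjusted p under 0.05 there were 2 of the 9, and 1466 of 20111 genes.

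In CHI mice, Nptx2 was higher at 9 h than at 24 h (0.78, SE 0.06, adjusted p = 1.73e-26) and Homer1 lower (−0.52), with Vgf higher (0.26) and Scg2 (−0.19) and Pcsk1 (−0.23) lower, among 65.4% of genes called. Against 72 h, CHI mice of 9 h were lower in Arc (−0.79), Npas4 (−0.30), Homer1 (−0.59) and Pcsk1 (−0.24) and higher in Nptx2 (0.74) and Vgf (0.25), among 65.7% called. Arc (−0.50) and Npas4 (−0.46) were lower, and Scg2 higher (0.13), at 24 h than at 72 h in CHI mice, among 2.4% called. With age as a covariate the calls of Npas4 against 72 h (−0.24 at 9 h, −0.45 at 24 h) and of Pcsk1 (−0.13) were lost, and in no strain alone was any of the 9 genes called between 24 h and 72 h. Nptx2 thus had a mean of 76.3 ± 18.6 CPM in CHI mice at 9 h (SD, n = 46), 43.6 ± 7.39 at 24 h (n = 43) and 45.3 ± 8.84 at 72 h (n = 44), against 56.8 ± 14.0 (n = 22), 45.6 ± 7.45 (n = 22) and 42.8 ± 6.40 (n = 23) in sham mice. Striatal markers differed between times in both groups (median summed level 256 TPM in CHI and 270 TPM in sham mice at 9 h, 741 and 753 at 24 h, 830 and 785 at 72 h), and excitatory neuron markers did so in the other direction (4531 and 4163 at 9 h, 3436 and 3367 at 24 h). Their part in the time differences was not tested.

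No difference of the CHI effect between females and males was called for any of the 9 genes at 9, 24 or 72 h by edgeR or DESeq2 (0%, 0% and 0.00565% of genes called). At an unadjusted p under 0.05 there were 0, 4 and 0 of the 9, and 370 of 17639, 916 of 17619 and 657 of 17707 genes. The 4 at 24 h were Homer1 (females minus males 0.32, SE 0.13), Bdnf (0.27, SE 0.12), Nptx2 (0.26, SE 0.13) and Pcsk1 (0.18, SE 0.09).

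Other genes of the same pathways were counted at 9 h over the 4 strains, where the median of all genes was −0.01. Among all genes of this comparison 26.5% were called, 13.8% lower and 12.7% higher. Of 12 activity-regulated transcription factors 11 fell and none rose (median −0.71). Egr2, a zinc-finger factor, fell by 1.81 on the log2 scale (SE 0.22, adjusted p = 4.93e-09), Nr4a1, an orphan nuclear receptor, by 1.07 (SE 0.15), Nr4a3 of the same family by 0.82 (SE 0.11) and Fosl2, an AP-1 subunit, by 0.63 (SE 0.09). Egr3 was the one not called. By strain, 11 of the 12 fell in C57BL/6J mice (median −1.14, with 14.1% of all genes called), 1 each in eRestore and nRestore mice (Egr2 in both, with 7.34% and 0.608% called), and none passed edgeR's test in gKO mice (0.199% called), where 9 of the 12 had an unadjusted p under 0.05 and DESeq2 called 4. These counts do not test a difference between strains. In gKO mice 1784 of all 16604 genes had an unadjusted p under 0.05.

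Of 24 other activity-regulated effector genes 4 rose and 3 fell (median 0.00), a share near that of all genes. The genes that rose were Sorcs3, a sorting receptor (0.34, SE 0.05), Plat, tissue plasminogen activator (0.30, SE 0.06), Ifrd1 (0.22, SE 0.04) and Rgs2. Those that fell were Sik1, a salt-inducible kinase (−0.63, SE 0.10), Gpr3 and Crem.

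Of 31 receptors and binding partners of the 9 gene products 3 rose and 6 fell (median −0.02), again near the share of all genes, so that the values given describe single genes and not the list. Nptx1, the pentraxin that assembles with the product of Nptx2, rose by 0.38 on the log2 scale (SE 0.04, adjusted p = 2.43e-10). By strain it rose in C57BL/6J (0.31), eRestore (0.55) and nRestore mice (0.37), and its difference was 0.29 in gKO mice without a call. Smad3, which carries activin signals to the nucleus, rose by 0.42 (SE 0.05) with the receptor gene Acvr1b, while Fst, the secreted inhibitor that binds activin, fell by 0.45 (SE 0.08) with Inhbb and Acvr1c. Gria4, an AMPA receptor subunit, fell by 0.18 (SE 0.03), as did Grm5 and Shank1 among the partners of Homer1. Ntrk2 and Ngfr, the receptor genes for Bdnf, were not called. At 24 h Shank1 was the only one of the 31 called (lower).

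Of 12 dense-core vesicle and prohormone processing genes 3 rose and none fell (median 0.02), likewise near the share of all genes. They were the granin genes Chgb (0.23, SE 0.04, adjusted p = 7.65e-06) and Scg3 (0.17, SE 0.04, adjusted p = 0.00121) and Scg5 (0.11, SE 0.04, adjusted p = 0.0457), whose product binds the convertase encoded by Pcsk2. In the same comparison Pcsk1 and Scg2 fell.

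Across the 200 mice, with the mean of each strain, surgery and time group subtracted, the 9 genes did not all vary together. These correlations are descriptions over mice that share experiments, with both genes of a pair read from the same library. Arc and Npas4 varied together (Pearson r = 0.59, Spearman rho = 0.57, n = 200, and r = 0.57 without the 2 mice farthest from the median of Arc). Bdnf varied with Homer1 (r = 0.62, rho = 0.62), Nptx2 (r = 0.61, rho = 0.60), Vgf (r = 0.60, rho = 0.58) and Pcsk1 (r = 0.61, rho = 0.60), and the highest r was that of Homer1 and Pcsk1 (r = 0.66, rho = 0.69). Arc had r between −0.12 and 0.29 with the genes other than Npas4. With the other 8 genes, Scg2 had r from 0.02 to 0.65 in sham mice (n = 67) and from −0.25 to 0.30 in the CHI mice, a difference that was not tested.

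**Figure D5:**
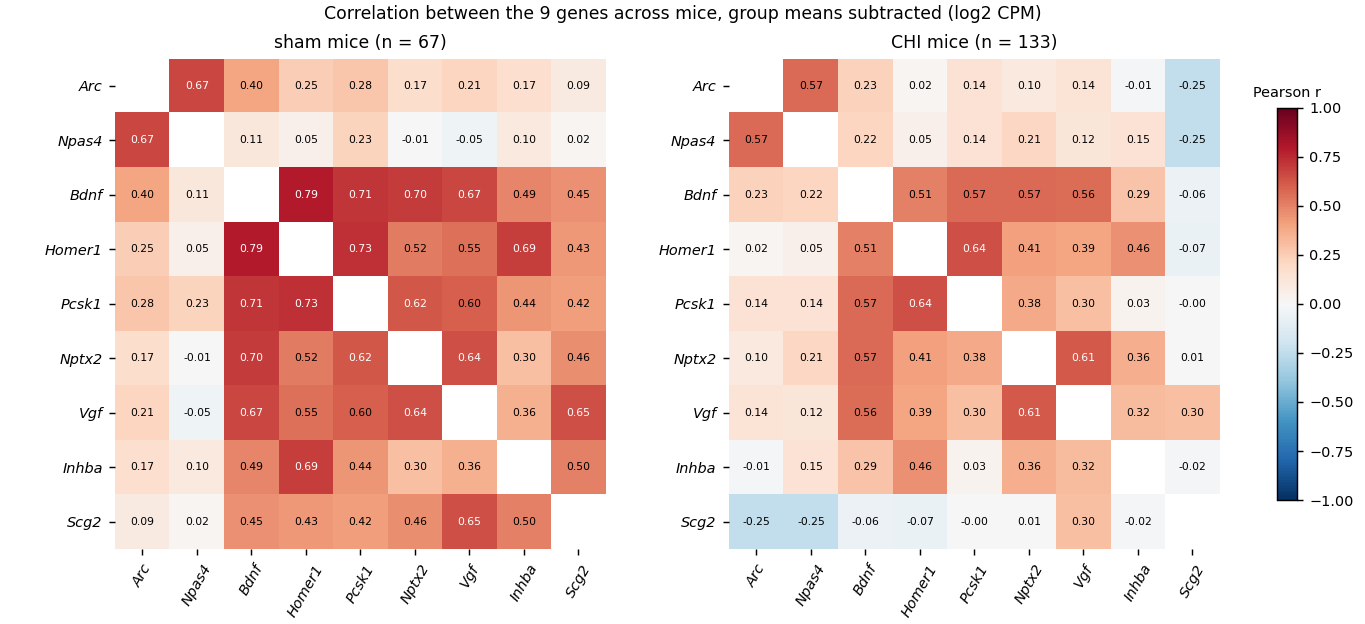
Pearson r between each pair of the 9 genes in 67 sham mice (left) and CHI mice (right), after group means were subtracted from log2 CPM. Arc and Npas4 varied together in both (0.67 and 0.57), and r of Scg2 with the other genes reached 0.65 in sham and 0.30 in CHI mice.

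Among 20111 genes, the one most like Arc over these mice was Nr4a1 (r = 0.91), followed by Dusp1 (0.89) and Junb (0.88). For Npas4 it was Btg2 (0.71), for Bdnf Nr4a3 (0.75), for Homer1 Spred1 (0.73) and for Nptx2 Lingo1 (0.69), with Egr3 next (0.68). For Vgf it was Clstn3 (0.79), with the granin gene Chga next (0.76), for Pcsk1 Etv5 (0.74), for Scg2 Vat1 (0.59) and for Inhba Rps6ka3 (0.58). The gene most like Arc and the one most like Bdnf both fell at 9 h over the 4 strains, where 13.8% of all genes were called lower. Both belong to the activity-regulated transcription factors counted above, of which 11 of 12 fell. Results at 9 h for the other nearest genes are not given here.

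In the annotation of GRCm39, Arc lies at chr15:74540932-74544419 and Npas4 at chr19:5034382-5040344, both on the minus strand, and no other annotated gene overlaps them. Pcsk1 (chr13:75237284-75284898, plus strand), Vgf (chr5:137055246-137062205, plus strand) and Scg2 (chr1:79412386-79417837, minus strand) are likewise free of overlaps. Bdnf (chr2:109505045-109557475, plus strand) overlaps 1 gene on the other strand, Inhba (chr13:16186373-16206206, plus strand) 2 on the other strand, and Homer1 (chr13:93436143-93541637, plus strand) 2 on its own and 1 on the other strand. Reads of these 3 genes may be shared with the overlapping genes, since the strandedness of the libraries is not given in the sources used here. Gene-level counts also do not separate the activity-induced short Homer1 transcript from the long forms, or the Bdnf transcripts of different promoters.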

How the data were processed

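Brain tissue of 200 mice was sequenced. The study's methods, which describe the C57BL/6J mice alone, give one hemisphere after perfusion with PBS, and poly(A)-selected libraries read from both ends. For the other strains these steps are not given in the sources used here. The authors aligned the reads to GRCm39 with STAR and quantified them with Salmon. The annotation release and the strandedness are not given in the sources used here. The authors deposited estimated counts per gene, not normalized, and TPM values, scaled for transcript length within each library. TPM was used only to compare levels between genes and to sum marker genes. A few items are not reported here. Table columns that belong to no sample numbered 0.

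Tests used edgeR 4.0.16 in R 4.3.3 (TMM factors, robust quasi-likelihood F test) on the counts rounded to whole numbers. A gene was kept if it reached 10 counts in a number of mice equal to the size of the smallest group. Sex and age were covariates, with strain added where strains were pooled. Fits within single experiments at 9 h left age out. Sham mice, and CHI mice, were compared between time points without age, which follows the time point. Benjamini-Hochberg adjustment ran over all genes tested, with a threshold of 0.05. Standard errors came from the F statistics and intervals from the standard errors. CPM are counts normalized by TMM factors and library size, and 0.5 counts were added on the log scale for correlations. Both tests were tested on simulated data.

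Promoter windows and gene positions were read from the GRCm39 genome and its GENCODE annotation, in which 56323 of 56941 gene identifiers were found (98.9%). Samples were grouped by strain, surgery and time point as the labels give them, and nothing in the labels says that mice of a group were independent litters. The genes named are the 9 genes throughout, up to 4 called genes with the smallest p from each list, the 3 genes most alike to each of the 9, and Il1r1. A few further called list genes and the uncalled Egr3, Ntrk2 and Ngfr were named after their values were seen. The 9 genes and all lists were chosen with earlier results of these data known. Alternatives were DESeq2 1.42.0, with and without gene-length offsets, a filter of 1 count, RLE factors, one fit per time point, no covariates, experiment instead of age, single strains, and leaving out strains or mice.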

Additional observations from a re-analysis of the deposited data

Results flagged for a closer look

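In 5 sets of values of 1 gene in a group of 4 to 10 mice (3.47% of the sets tested), 1 mouse stood apart from the others by Dixon's test, which chance does in about 1 set in 20. Each was the highest mouse of its group: Vgf in C57BL/6J sham replicate 2 at 9 h (372 CPM), Bdnf in IL-1R1 eRestore sham replicate 3 at 24 h (34.3) and replicate 2 at 9 h (43.9), Pcsk1 in IL-1R1 eRestore sham replicate 6 at 9 h (84.7), and Arc in IL-1R1 nRestore CHI replicate 1 at 9 h (102).

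Over the 4 strains, the effect of CHI differed between time points in edgeR's test of the difference itself. The effect at 9 h minus that at 24 h was 0.54 on the log2 scale for Nptx2 and −0.20 for Scg2. Minus that at 72 h, it was −0.9999 for Arc, −0.38 for Bdnf, 0.37 for Nptx2 and −0.16 for Scg2. The last of these lost its call without the 2 mice that went against their labelled sex. Among 20111 genes, 9.63% were called for 9 h minus 24 h and 11.8% for 9 h minus 72 h. Experiment and time of day at collection cannot be told apart from time after surgery in these differences.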

How the results depend on the processing

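Of 398 log2 values of called genes under alternative settings, 302 kept direction and call, 92 kept direction without the call and 4 turned: Vgf in sham mice, 9 h minus 24 h, in eRestore alone (−0.0554), and in CHI mice Npas4, 9 h minus 72 h, in nRestore alone (0.0315), Scg2, 24 h minus 72 h, in C57BL/6J alone (−0.0036) and Arc, 24 h minus 72 h, in nRestore alone (0.0127). Of 314 counts of called genes, 269 stayed within 1.5 times the reported count. At 9 h, C57BL/6J went from 5 to 3 (experiment eIL-1-80 alone), gKO from 0 to 1 (DESeq2), 3 (eIL-1-80 alone) and 1 (one fit of all mice), and eRestore from 1 to 0 (eIL-1-80 alone). For nRestore the count went from 1 to 2 (DESeq2, with or without length offsets), 6 (no filter), 0 (age left out) and 0 (one fit). It lay between 0 and 1 when single mice were left out. These nRestore mice all came from the same experiment, so that experiment could not take the place of age. At 24 h, C57BL/6J went from 0 to 1 (Arc, no filter), and the 4 strains together from 0 to 1 (DESeq2, and no covariates) and 2 (without nRestore). Experiment TM-2-33 went from 1 to 4 (DESeq2). The effect at 9 h minus 24 h went from 2 to 4 (no covariates), and to 0, 1 and 0 in gKO, eRestore and nRestore alone, and that at 9 h minus 72 h from 4 to 2 in C57BL/6J alone and 0 in each of the other strains alone. Between times, sham mice went from 5 to 0, 1 and 2 (9 h minus 24 h) and from 4 to 0, 2 and 0 (9 h minus 72 h) in gKO, eRestore and nRestore alone. CHI mice went from 5 to 3 and 3 (9 h minus 24 h, gKO and eRestore alone), from 6 to 3, 2 and 3 (9 h minus 72 h) and from 3 to 0 in each strain alone (24 h minus 72 h). Single strains and experiments hold fewer mice, and for the other settings the cause was not tested. For most of these settings the share of all genes called is not given here. The counts therefore do not show whether the 9 genes moved more than other genes did. Fits of single experiments at 9 h, and fits without the 2 mice that went against their labelled sex, were chosen after seeing the data, and the latter moved no count by over 1.5 times. No paired analysis was possible because the labels give no replicate numbers shared between groups.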
